A study of Mus musculus with 9 samples.

Results

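Fatty acid oxidation and acyl-CoA genes were followed as a set of 35 genes, chosen by symbol for their place in the breakdown of fatty acids, out of 20087 named genes in a gene-level RNA-seq table of mouse embryos. The choice was made with earlier results of these data known. All 35 symbols were present in the table. The embryos had the B6D2F1 strain background; siRNA was injected into zygotes, and embryos were taken at E2.75, when they are morulae. The control group (NC) received a nonspecific siRNA and is labelled wild type. One knockdown group received siRNA against Hdac1 and Hdac2 (Hdac1/2 cKD) and the other received siRNA against Sin3a (Sin3a KD). Every group had 3 libraries, each made from poly(A) RNA of 60 pooled embryos, and all 9 libraries also received a fixed amount of RFP and GFP mRNA before extraction. Hdac1 and Hdac2 are histone deacetylases, and Sin3a organises a corepressor complex of which they are subunits. Nothing in the labels states that libraries of a group were collected separately; p-values therefore reflect only how these libraries vary, which may be technical.

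In beta-oxidation, a long-chain fatty acid is first joined to coenzyme A by an acyl-CoA synthetase. It is then carried into the mitochondrion as acylcarnitine by the carnitine palmitoyltransferases, and shortened from its carboxyl end by repeated rounds of dehydrogenation, hydration, a second dehydrogenation and thiolytic cleavage. The electrons of the first dehydrogenation pass through the electron transfer flavoprotein to the respiratory chain, auxiliary enzymes move or reduce the double bonds of unsaturated chains, and peroxisomes shorten chains by a parallel set of enzymes. Thioesterases release free fatty acids from acyl-CoA. Oocytes and early embryos carry stored lipid, and fatty acid oxidation is among their sources of energy.

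Values are gene-level counts that the authors normalised with DESeq2, called normalised counts here, and the totals per library ran from 11.9 M to 13.5 M. A gene was tested if it reached 10 normalised counts in at least 3 of the 9 libraries, which 13343 genes did. It was called if its limma p-value, adjusted over all tested genes by the Benjamini-Hochberg method, was below 0.05. Fold changes are differences between group means on the log2(normalised count + 1) scale. The added 1 shrinks the change of low genes. Where low values scatter, a difference of mean logs can still exceed the change in the means, as for Acaa1b and Acot1 below. The targeted genes were low in the libraries labelled for them: Hdac1 was at 16.9% and Hdac2 at 13.3% of the NC mean in Hdac1/2 cKD, and Sin3a was at 29.0% of the NC mean in Sin3a KD. Hdac1 also fell in Sin3a KD, to 34.3% of the NC mean (adjusted p = 0.00297). NC replicate 3 had the largest share of genes listed at 0, 28.4% against 13.2% to 23.4% in the other libraries. A list of 10 blastomere markers held Pou5f1, Nanog, Cdx2 and others. Of these 10, 6 fell in Hdac1/2 cKD and 3 in Sin3a KD, and the ones that fell are not named here. Of all tested genes, 7.80% were called lower in Hdac1/2 cKD and 4.36% in Sin3a KD. The summed normalised counts of the 10 markers lay between 32377 and 35607 in the Hdac1/2 cKD libraries, against 45088 to 48691 for NC and 43194 to 46453 for Sin3a KD. No tested marker of oocytes, 2-cell embryos or granulosa cells was called in either knockdown against NC. Of 10 granulosa and cumulus markers 8 were in the table, and their sum lay between 4787 and 6446 for NC, between 5355 and 5449 for Hdac1/2 cKD and between 5471 and 6132 for Sin3a KD. Nearly all of that was Nr5a2 (4735 to 6399.8), a gene that early embryos also express; the other 7 reached at most 44.6 in any library, and Cyp19a1 was listed at 0 in all 3 NC libraries. Whether the fall in blastomere markers bears on the genes below was not tested. In pooled whole embryos, fewer cells of a type and less RNA per cell cannot be told apart.

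The control embryos expressed most of the set, over a wide range of levels. Levels here are per kilobase of exon, over the merged exons of all annotated transcripts of a gene. By this measure the highest member in NC was Acadl, the long-chain acyl-CoA dehydrogenase, at 1342 normalised counts per kb. Etfa, a subunit of the electron transfer flavoprotein, followed at 1069.6 per kb and Acadm, the medium-chain acyl-CoA dehydrogenase, at 989 per kb. The other flavoprotein subunit, Etfb, stood at 865 per kb, Acads, the short-chain acyl-CoA dehydrogenase, at 654 per kb and Acaa2, the mitochondrial thiolase, at 437 per kb. By this measure acyl-CoA dehydrogenases and their electron acceptor held the first 5 places. Each of these 5 overlapped its neighbour in the order over the 3 NC libraries, whereas every NC library had more Acads than any had Acaa2. The order depends on the merged exon length, which is 2269 bases for Acads, 5405 for Acsl4 and 8730 for Hadha. Not divided by length, the NC mean was 1485 for Acads, 1569 for Acsl4 and 1357 for Hadha. Per kb the carnitine palmitoyltransferases were lower, with Cpt1a at 97.4 (merged exons of 7642 bases) and Cpt2 at 5.93. The translocase of the carnitine step, Slc25a20, is outside the set, and its NC mean was 2795 normalised counts, not divided by length. At the low end were Acaa1b at 5.85, Acot1 at 3.44, Ehhadh at 0.355 and Acsl5 at 0.235 per kb. Ehhadh, the peroxisomal bifunctional enzyme, ranged from 0 to 5.22 normalised counts over the 9 libraries and Acsl5, a long-chain acyl-CoA synthetase, from 0 to 12.1. Neither of them passed the filter, which left 33 members tested. Acaa1b, at 25.5, 7.58 and 1.38 in NC, and Acot1, at 7.15, 28.6 and 4.66, passed it only because of the knockdown libraries. Ppara, at 8.66, 8.54 and 96.9 in NC, passed it only because of Sin3a KD libraries.

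**Figure D1:**
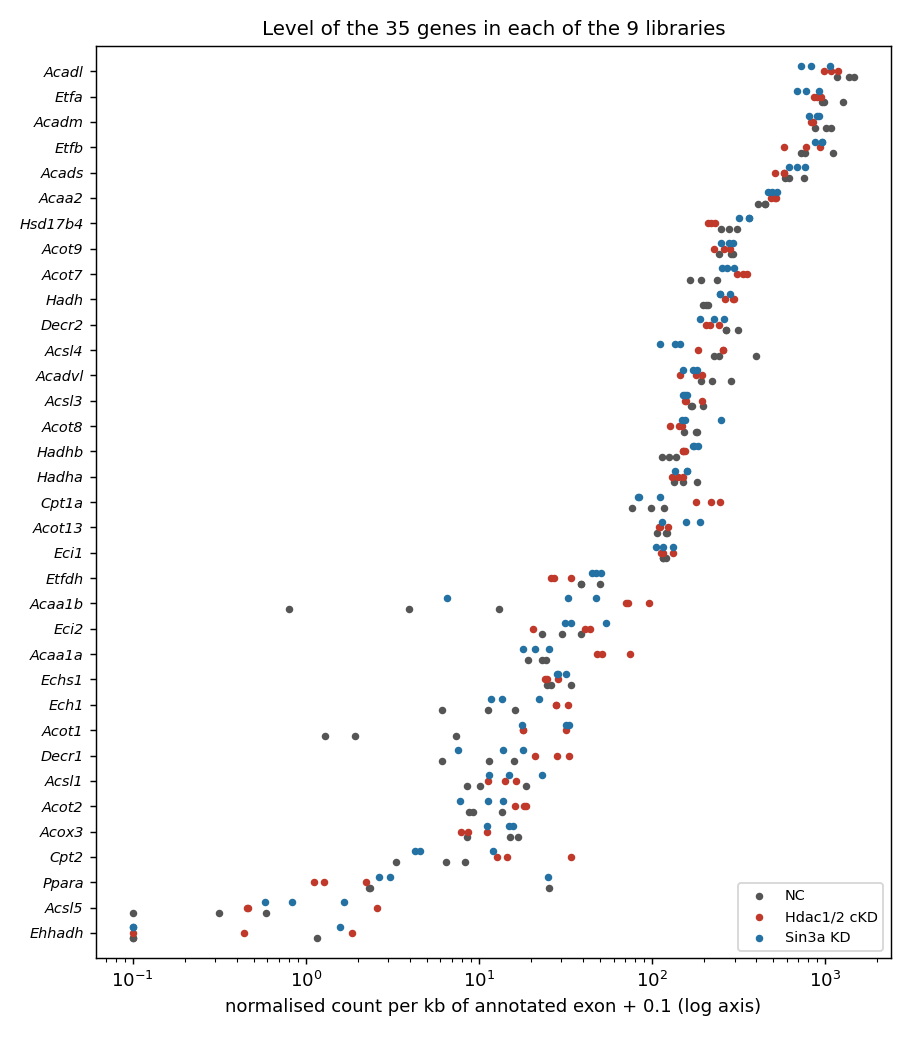
Level of each of the 35 genes in each of the 9 libraries, as normalised count per kb of exon plus 0.1 on a log axis, with 1 dot per library coloured by group. Acadl, Etfa, Acadm, Etfb and Acads lie at the top in NC, and Ehhadh and Acsl5 at the bottom in all groups.

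Summed over the set, the level differed little between groups. The 35 genes together made up 0.173% to 0.184% of the normalised counts of an NC library, 0.175% to 0.178% of a Sin3a KD library and 0.183% to 0.190% of an Hdac1/2 cKD library. The NC and Hdac1/2 cKD ranges overlapped at NC replicate 3. These shares divide by library totals, which were 12.8 M to 13.5 M in NC and 12.0 M to 12.3 M in Hdac1/2 cKD. Not divided, the sum was 22105 to 23986 normalised counts in NC and 22071 to 23139 in Hdac1/2 cKD, so it was not higher there. In Sin3a KD it was 20977 to 22432, with replicates 1 and 3 below every NC library.

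In embryos depleted of Hdac1 and Hdac2, 8 of the 33 tested members rose and none fell. They were Cpt1a, which makes acylcarnitine at the outer mitochondrial membrane; the peroxisomal thiolases Acaa1a and Acaa1b; the thioesterases Acot1 and Acot7; the mitochondrial 3-hydroxyacyl-CoA dehydrogenase Hadh; and Ech1 and Decr1, auxiliary enzymes for unsaturated chains. That is 24.2% of the tested members, against 7.81% of all tested genes called higher and 7.80% called lower in the same comparison. The members were chosen with earlier results of these data known, so this share is not an independent result about the pathway. Among the 8, Acaa1b and Acot1 passed the filter only because of the knockdown libraries, where they are high. Of 62 tested genes from the pathway lists outside the set, 3.23% were called higher and 8.06% lower. The remaining 25 members were not called. The median log2 fold change was -0.09 over the 33 members and 0.03 over all tested genes, with 15 members above 0 and 18 below. The count of calls was lowest, at 5, when Hdac1/2 cKD replicate 2 or replicate 3 was left out. Libraries scaled to equal totals moved the median of all tested genes from 0.03 to 0.15 in this comparison and from 0.03 to 0.12 in Sin3a KD, and no called member changed sign there.

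**Figure D2:**
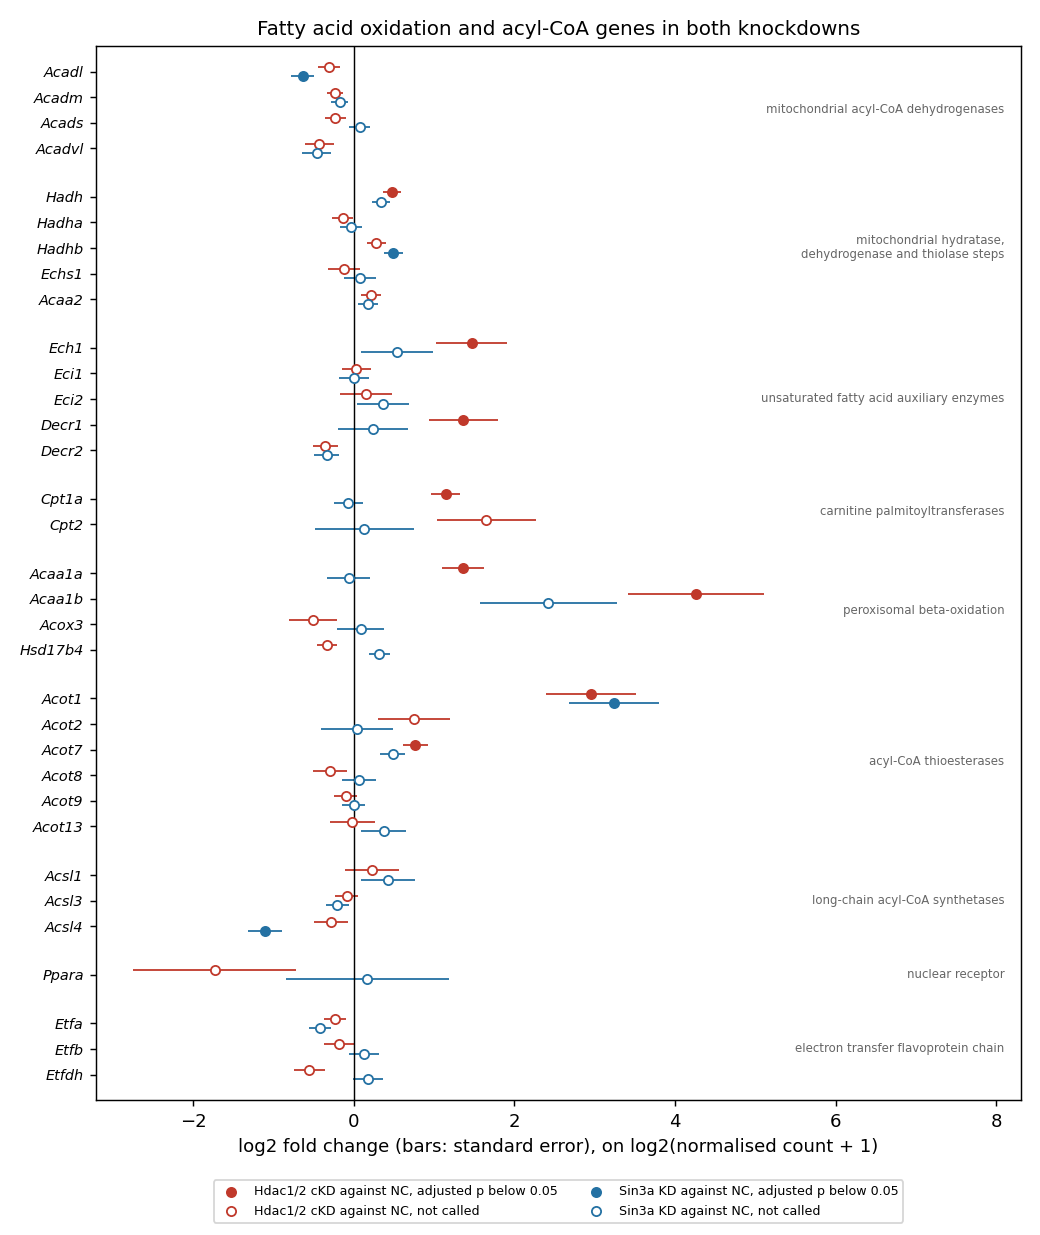
Log2 fold change against NC on the log2(normalised count + 1) scale, with bars of 1 standard error, for the 33 tested genes ordered by role, in Hdac1/2 cKD (red) and Sin3a KD (blue), 3 libraries per group and the same 3 NC libraries in both; filled points have an adjusted p below 0.05. In Hdac1/2 cKD all 8 filled points lie above 0, and in Sin3a KD 2 lie above and 2 below.

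Among the carnitine palmitoyltransferases, Cpt1a (chromosome 19, 3322334 to 3385733, forward strand, GRCm38) is known as the rate-controlling step of long-chain fatty acid entry into mitochondria. Its normalised counts were 753, 895 and 586 in NC replicates 1, 2 and 3, 1673, 1876 and 1367 in Hdac1/2 cKD and 644, 847 and 634 in Sin3a KD. Every Hdac1/2 cKD library lay above every NC and Sin3a KD library, while NC and Sin3a KD overlapped. The mean rose from 744 ± 155 (SD, n = 3) to 1639 ± 256 (SD, n = 3), a ratio of 2.20 and a log2 fold change of 1.15 with a standard error of 0.18 (limma, adjusted p = 0.000946). In Sin3a KD the mean was 708 ± 120.4 (SD, n = 3), with an adjusted p of 0.868. The difference between the knockdowns was itself called, at a log2 fold change of 1.21 with a standard error of 0.18 (adjusted p = 0.000546). Cpt2, which turns acylcarnitine back into acyl-CoA inside the mitochondrion, was low everywhere, at 7.66, 19.6 and 15.2 in NC, 30.04, 34.3 and 80.8 in Hdac1/2 cKD and 10.8, 28.6 and 10.02 in Sin3a KD. Its 3 Hdac1/2 cKD libraries were the 3 highest of the 9, but the log2 fold change of 1.65 did not pass the test (adjusted p = 0.0894).

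The peroxisomal 3-ketoacyl-CoA thiolases cleave the shortened chain at the end of each peroxisomal round, and mice have a pair of genes for them. Acaa1a (chromosome 9, 119339676 to 119350299, forward strand) stood at 102, 84.6 and 107 normalised counts in NC, 227, 212 and 330.4 in Hdac1/2 cKD and 111, 92.2 and 78.5 in Sin3a KD. The Hdac1/2 cKD libraries did not overlap either of the other groups. Its log2 fold change against NC was 1.36 with a standard error of 0.26 (adjusted p = 0.00367), and against Sin3a KD 1.42 with a standard error of 0.26 (adjusted p = 0.00231). Acaa1b (chromosome 9, 119148023 to 119157093, reverse strand) had 25.5, 7.58 and 1.38 in NC, 139, 189 and 142 in Hdac1/2 cKD and 64.3, 12.6 and 93.5 in Sin3a KD. It was the member with the largest log2 fold change in Hdac1/2 cKD, 4.26 with a standard error of 0.85 (adjusted p = 0.00593), on NC values of at most 25.5. The ratio of its means, 13.6, is a smaller change than this. In Sin3a KD the libraries spread widely, and replicate 2 lay inside the NC range; the log2 fold change of 2.42 did not pass the test (adjusted p = 0.102). Acaa1a also overlaps Myd88 and Slc22a14, and Acaa1b overlaps Dlec1, each on the opposite strand, and without strand in the counting such reads cannot be told apart. The pair shares sequence: 50.1% of the distinct 31-base words of Acaa1b transcripts also occur in transcripts of other genes, 40.01% in those of Acaa1a, so the split of reads between them is uncertain. The sum of Acaa1a and Acaa1b does not depend on that split, and was 127, 92.2 and 108 in NC, 366, 401 and 472 in Hdac1/2 cKD and 176, 105 and 172 in Sin3a KD. The Hdac1/2 cKD sums lay above all others, at 3.78 times the NC mean.

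The other tested peroxisomal members, Hsd17b4 and Acox3, were not called in either knockdown against NC. Hsd17b4, the D-bifunctional enzyme of peroxisomal hydration and dehydrogenation, was at 847, 1050.2 and 951 in NC, 749.9, 719 and 786 in Hdac1/2 cKD and 1231, 1240.0 and 1082 in Sin3a KD. The Hdac1/2 cKD libraries were the 3 lowest and the Sin3a KD libraries the 3 highest. Neither difference from NC passed the test, at log2 fold changes of -0.33 (adjusted p = 0.0924) and 0.32 (adjusted p = 0.134). The difference between the knockdowns did, at -0.65 with a standard error of 0.13 (adjusted p = 0.00306). Acox3, an acyl-CoA oxidase for branched chains, ranged from 89.6 to 193 over the 9 libraries and was not called.

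Among the 6 acyl-CoA thioesterases, Acot1, a cytosolic enzyme for long-chain acyl-CoA, changed in both knockdowns. Acot1 (chromosome 12, 84009490 to 84018371, forward strand) was at 7.15, 28.6 and 4.66 normalised counts in NC, 70.3, 70.5 and 125 in Hdac1/2 cKD and 125, 68.9 and 129.6 in Sin3a KD. No NC library came within the range of either knockdown, while the knockdowns overlapped each other. The log2 fold changes, which share the NC libraries, were 2.96 in Hdac1/2 cKD (standard error 0.56, adjusted p = 0.00344) and 3.24 in Sin3a KD (standard error 0.56, adjusted p = 0.00553). The ratios of means, 6.57 in Hdac1/2 cKD and 7.99 in Sin3a KD, are smaller changes than these. Acot2 (chromosome 12, 83987861 to 83993873, forward strand), the mitochondrial paralog next to it, was at 19.1, 29.7 and 20.2 in NC, 40.05, 40.9 and 35.3 in Hdac1/2 cKD and 16.8, 30.2 and 24.5 in Sin3a KD. Here the Hdac1/2 cKD libraries lay highest and the Sin3a KD libraries overlapped NC. Acot2 was not called (log2 fold change 0.75, adjusted p = 0.288 in Hdac1/2 cKD). These genes share sequence too, with 16.7% of the 31-base words of Acot1 found in Acot2 and 29.9% of those of Acot2 found in Acot1. Counting all other genes, the shared words were 22.8% for Acot1 and 37.8% for Acot2. The sum of Acot1 and Acot2 was 26.2, 58.4 and 24.9 in NC, 110.4, 111 and 160.4 in Hdac1/2 cKD and 142, 99.1 and 154 in Sin3a KD, which is 3.49 times the NC mean in Hdac1/2 cKD and 3.61 times in Sin3a KD.

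Acot7, a cytosolic thioesterase known mainly from brain (chromosome 4, 152178134 to 152271855, forward strand), was at 409, 350.2 and 501 in NC, 662, 717 and 749.5 in Hdac1/2 cKD and 633, 539 and 579 in Sin3a KD. All Hdac1/2 cKD libraries lay above all of the others. The log2 fold change in Hdac1/2 cKD was 0.77 with a standard error of 0.16 (adjusted p = 0.00543). The Sin3a KD libraries also lay apart from NC, but their log2 fold change of 0.48 missed the threshold (adjusted p = 0.0771). Acot8, a peroxisomal thioesterase, Acot9, a mitochondrial one, and Acot13 were not called in any comparison, with ranges over the 9 libraries of 253 to 503, 520.1 to 669.6 and 79.1 to 141.

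**Figure D3:**
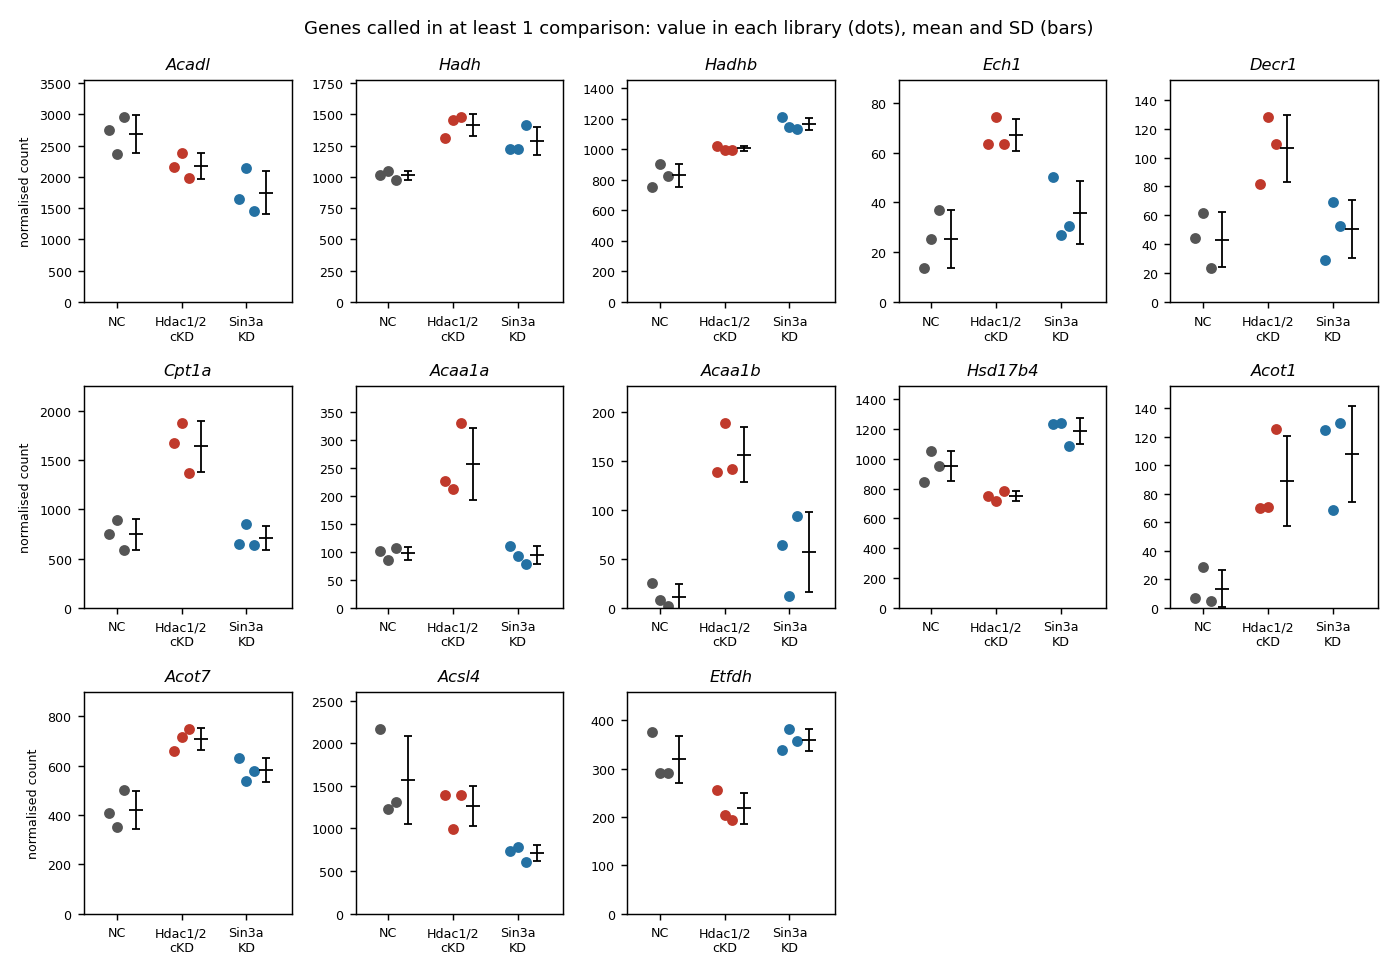
Normalised count in each library for the 13 genes called in at least 1 of the 3 comparisons, 1 panel per gene, with dots for the 3 libraries of NC, Hdac1/2 cKD and Sin3a KD, and bars for the mean ± SD; each axis starts at 0, which cuts off SD bars that would reach below it. Cpt1a, Acaa1a and Acot7 are highest in all 3 Hdac1/2 cKD libraries, Acot1 is above NC in both knockdowns, and Acsl4 is lowest in the 3 Sin3a KD libraries.

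Promoter sequence is given for Cpt1a, the thiolase pair and the Acot1 and Acot2 pair, because a member of each rose in Hdac1/2 cKD, and for Hadhb, which rose in Sin3a KD. Each line gives the 250 bases before the RefSeq start of the gene, 5′ to 3′ on the strand of the gene, on GRCm38.p6. The gene positions given above are GENCODE spans over all transcripts, and the annotations differ: the Cpt1a and Acaa1a windows lie inside the GENCODE span, downstream of its outermost start, and those of Acot1 and Hadhb reach a few bases into it. The windows are chr19:3323051-3323300 (forward strand), chr9:119341044-119341293 (forward), chr9:119157094-119157343 (reverse), chr12:84009252-84009501 (forward), chr12:83987611-83987860 (forward) and chr5:30155003-30155252 (forward). Capitals mark the GC box GGGCGG and the CCAAT box CCAAT, each searched on both strands, so that CCGCCC and ATTGG are their reverse strand forms.
Cpt1a: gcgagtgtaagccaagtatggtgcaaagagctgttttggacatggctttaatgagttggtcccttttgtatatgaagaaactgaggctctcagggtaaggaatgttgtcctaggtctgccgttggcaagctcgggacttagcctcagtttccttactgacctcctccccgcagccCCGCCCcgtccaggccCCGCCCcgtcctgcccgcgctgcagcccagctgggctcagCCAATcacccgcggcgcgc
Acaa1a: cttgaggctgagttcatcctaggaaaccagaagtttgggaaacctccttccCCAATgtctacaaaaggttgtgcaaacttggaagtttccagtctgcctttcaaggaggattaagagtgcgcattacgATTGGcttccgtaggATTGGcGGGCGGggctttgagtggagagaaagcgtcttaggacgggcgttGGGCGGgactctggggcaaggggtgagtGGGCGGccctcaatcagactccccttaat
Acaa1b: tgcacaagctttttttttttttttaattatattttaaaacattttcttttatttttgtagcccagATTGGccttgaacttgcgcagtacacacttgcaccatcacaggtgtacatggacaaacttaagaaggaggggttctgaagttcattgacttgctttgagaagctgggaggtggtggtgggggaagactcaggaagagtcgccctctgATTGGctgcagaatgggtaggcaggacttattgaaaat
Acot1: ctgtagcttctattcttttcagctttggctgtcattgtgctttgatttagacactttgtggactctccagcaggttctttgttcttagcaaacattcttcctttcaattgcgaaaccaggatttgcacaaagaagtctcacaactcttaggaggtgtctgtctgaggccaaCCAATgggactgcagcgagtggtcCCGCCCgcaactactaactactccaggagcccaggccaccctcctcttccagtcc
Acot2: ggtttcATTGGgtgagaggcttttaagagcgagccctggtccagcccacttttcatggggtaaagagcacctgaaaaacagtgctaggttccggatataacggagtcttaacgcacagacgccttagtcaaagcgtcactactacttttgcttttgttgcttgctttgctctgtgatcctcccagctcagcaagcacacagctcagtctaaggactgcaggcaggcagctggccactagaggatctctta
Hadhb: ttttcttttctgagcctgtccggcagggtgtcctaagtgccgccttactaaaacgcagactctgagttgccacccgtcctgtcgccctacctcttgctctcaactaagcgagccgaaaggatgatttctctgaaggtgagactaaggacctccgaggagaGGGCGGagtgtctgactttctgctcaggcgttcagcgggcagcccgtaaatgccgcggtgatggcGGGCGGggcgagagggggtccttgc

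Within each pair the windows differed. Acaa1a held 3 GC boxes, 3 CCAAT boxes and 10 CpG, at 53.6% GC, while Acaa1b held no GC box, 2 CCAAT boxes and 2 CpG, at 41.6% GC. The thiolase windows were 43.6% identical over aligned bases, and their starts lie 184201 bp apart. Acot1 held 1 GC box and 1 CCAAT box with 4 CpG, and Acot2 held 1 CCAAT box and no GC box with 6 CpG; these windows were 46.2% identical over aligned bases, and the starts lie 21641 bp apart. Cpt1a held 2 GC boxes, 1 CCAAT box and 14 CpG. The Hadhb start lies 273 bp from that of Hadha on the opposite strand, and the windows of this divergent pair overlap by 228 bp. Over the 31 members with a window in the RefSeq table, 23 held a GC box (74.2%, against 59.3% of tested genes and 32.7% of all 32851 windows) and 15 held a CCAAT box (48.4%, against 36.7% and 33.8%). A TATAAA box was found in 1 member (3.23%, against 6.22% and 12.4%). The nuclear receptor hexamer AGGTCA occurred in 4 members, Acadm, Acadvl, Echs1 and Cpt1a (12.9%, against 10.7% and 14.0%). Of these, Acadm, Acadvl and Echs1 were not called in any comparison. The direct repeat AGGTCANAGGTCA occurred in none (0.0411% of tested genes and 0.0335% of all windows). Acaa2, Decr1, Hsd17b4 and Acot13 had no window in the table. These are matches of letters only.

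In the mitochondrial rounds, Hadh, the dehydrogenase for short and medium 3-hydroxyacyl-CoA (chromosome 3, 131233419 to 131272101, reverse strand), was at 1018, 1049.9 and 975 in NC, 1316, 1456 and 1479.9 in Hdac1/2 cKD and 1227, 1224 and 1413 in Sin3a KD. Both knockdowns lay above every NC library. The log2 fold change was 0.48 with a standard error of 0.11 in Hdac1/2 cKD (adjusted p = 0.0113) and 0.34 in Sin3a KD, where it missed the threshold (adjusted p = 0.0792). The call in Hdac1/2 cKD was lost without replicate 2 (adjusted p = 0.0516) or replicate 3 (adjusted p = 0.0508) of that group.

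Hadha and Hadhb encode the alpha and beta subunits of the mitochondrial trifunctional protein, which carries out the later steps of each round on long chains. Hadhb (chromosome 5, 30155248 to 30184593, forward strand) was at 756, 905 and 825 in NC, 1025, 998 and 997 in Hdac1/2 cKD and 1211, 1148 and 1135 in Sin3a KD, so that both knockdowns lay above NC and Sin3a KD lay highest. It rose in Sin3a KD by a log2 fold change of 0.49 with a standard error of 0.12 (adjusted p = 0.0205), and was not called in Hdac1/2 cKD (0.28, adjusted p = 0.117). Hadha, its divergent neighbour, was at 1161, 1588 and 1321 in NC, 1136, 1232 and 1309 in Hdac1/2 cKD and 1395, 1382 and 1184 in Sin3a KD, with all groups overlapping and no adjusted p below 0.536. Reads of Hadhb are partly ambiguous, since 19.5% of its 31-base words also occur in Gm13910. Echs1, the short-chain enoyl-CoA hydratase, ranged from 199 to 281 and the thiolase Acaa2 from 624 to 802; neither was called.

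**Figure D4:**
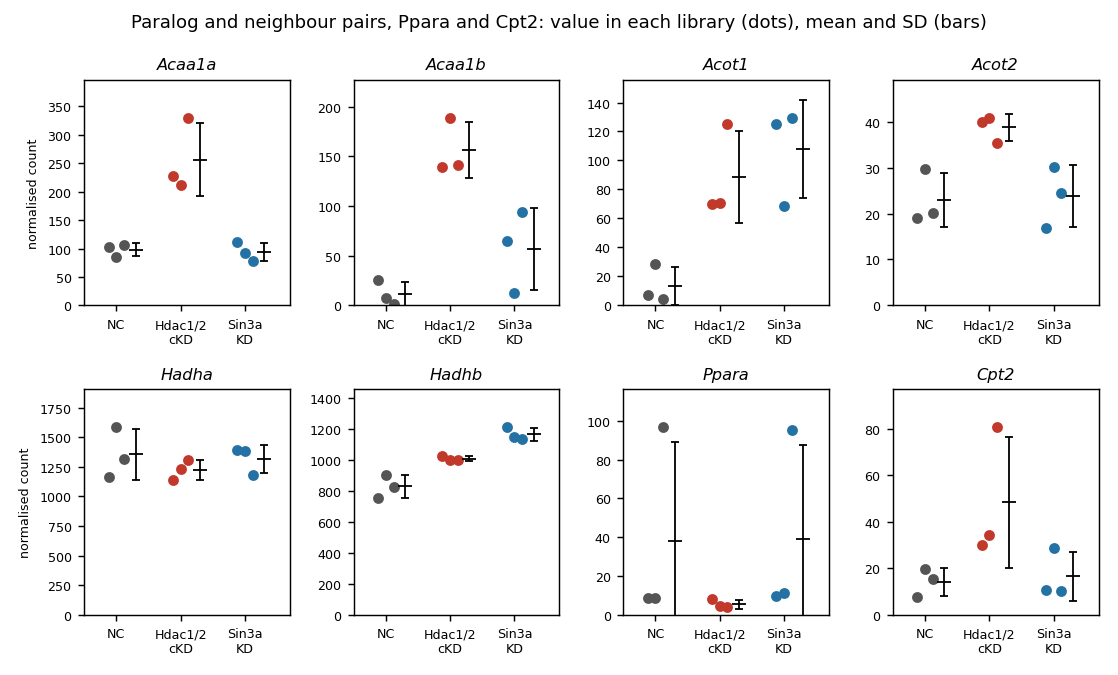
Normalised count in each library of NC, Hdac1/2 cKD and Sin3a KD for the paired genes Acaa1a and Acaa1b, Acot1 and Acot2, and Hadha and Hadhb, and for the low genes Ppara and Cpt2, with dots for libraries and bars for the mean ± SD; axes start at 0, which cuts off SD bars that would reach below it. Acot1 rises in both knockdowns while Acot2, whose 3 Hdac1/2 cKD libraries also lie above NC, is not called, and Ppara is high only in NC replicate 3 and Sin3a KD replicate 3.

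Unsaturated chains need extra enzymes. Ech1, a dienoyl-CoA isomerase (chromosome 7, 28825217 to 28832247, forward strand), was at 13.7, 25.5 and 36.9 in NC, 63.6, 74.3 and 63.3 in Hdac1/2 cKD and 50.3, 26.7 and 30.7 in Sin3a KD. Decr1, the mitochondrial dienoyl-CoA reductase (chromosome 4, 15917240 to 15945507, reverse strand), was at 44.1, 61.8 and 23.4 in NC, 81.7, 128 and 109 in Hdac1/2 cKD and 29.2, 69.5 and 52.9 in Sin3a KD. For both genes the Hdac1/2 cKD libraries were the 3 highest. The log2 fold changes were 1.47 for Ech1 (standard error 0.45, adjusted p = 0.0402) and 1.36 for Decr1 (standard error 0.43, adjusted p = 0.0474), and these were the weakest of the 8 calls. Ech1 lost its call in 9 of 16 alternative analyses and Decr1 in 11 of 17, among them the omission of any 1 Hdac1/2 cKD library (adjusted p of 0.0937 to 0.126 for Ech1 and 0.0692 to 0.157 for Decr1). The call of Ech1 was also lost without NC replicate 1 (0.125) or 2 (0.0527), and that of Decr1 without NC replicate 1 (0.0792) or 3 (0.135) and without Sin3a KD replicate 2 (0.0516) or 3 (0.0604), which enter through the shared estimate of the spread. The isomerases Eci1 and Eci2 and the peroxisomal reductase Decr2 were not called, at 225 to 282, 113 to 299.8 and 499 to 833 over the 9 libraries.

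In embryos depleted of Sin3a, 2 of the 33 tested members rose, Acot1 and Hadhb, and 2 fell, Acadl and Acsl4. Each direction is 6.06% of the members, against 3.60% of all tested genes called higher and 4.36% called lower. The median log2 fold change was 0.09 over the members and 0.03 over all tested genes, and 29 members were not called. Sequencing lane was read from a suffix of the library descriptions, which the labels do not explain. None of the 4 calls was kept when this lane was added to the model, when NC replicate 1 and Sin3a KD replicate 1, each alone on its lane, were both left out, or when limma was run without trend and robust estimation. Over all genes, those settings left 94, 49 and 36 calls of 1062.

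Acadl, the long-chain acyl-CoA dehydrogenase and the highest member per kilobase in NC (chromosome 1, 66830839 to 66863277, reverse strand), was at 2749.9, 2361 and 2959 in NC, 2159, 2384 and 1978 in Hdac1/2 cKD and 1655, 2138 and 1459 in Sin3a KD. The Sin3a KD libraries lay below all NC libraries, while Hdac1/2 cKD overlapped both. The log2 fold change in Sin3a KD was -0.63 with a standard error of 0.14 (adjusted p = 0.017). The call was lost without NC replicate 1 or 3 (adjusted p of 0.0548 and 0.0536) and without Sin3a KD replicate 1 or 3 (0.0742 and 0.0847). That of Hadhb was lost without NC replicate 1 (0.0653) and without Sin3a KD replicate 1 or 3 (0.0908 and 0.0640). The other acyl-CoA dehydrogenases were not called in either knockdown: Acadm ranged from 3139.7 to 4240.2, Acads from 1166 to 1737 and Acadvl, the very-long-chain enzyme, from 388 to 772.

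Acsl4, an acyl-CoA synthetase that prefers arachidonate (chromosome X, 142317993 to 142390535, reverse strand), was at 2168, 1226 and 1313 in NC, 1394, 993 and 1397 in Hdac1/2 cKD and 736, 788 and 604 in Sin3a KD. All Sin3a KD libraries lay below all other libraries. The log2 fold change against NC was -1.10 with a standard error of 0.21 (adjusted p = 0.00892), and Hdac1/2 cKD exceeded Sin3a KD by 0.82 with a standard error of 0.21 (adjusted p = 0.0167). The related synthetases Acsl1 and Acsl3 were not called, at 88.4 to 243 and 655 to 853 over the 9 libraries. Acsl6, a synthetase outside the set and outside the naming rule, had a mean of 80.1 in NC and 23.8 in Sin3a KD. It was called lower in Sin3a KD (log2 fold change -1.72, adjusted p = 0.0195). Of the 12 tested genes of its list, 2 were called lower and 1 higher in Sin3a KD. Whether the call of Acsl6 was kept under the alternative analyses is not given here. Hdac1/2 cKD exceeded Sin3a KD for Acsl6 by 1.91 (adjusted p = 0.00507).

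The knockdowns were also compared directly. Cpt1a, Acaa1a and Acsl4 were higher in Hdac1/2 cKD than in Sin3a KD, and Hsd17b4 and Etfdh were lower. The 3 higher members are 9.09% of those tested, against 8.49% of all tested genes, and the 2 lower members are 6.06%, against 8.78%; both shares are near the background. Etfdh passes electrons from the flavoprotein to ubiquinone (chromosome 3, 79603788 to 79629500, reverse strand). Its values were 376, 292 and 291 in NC, 255, 204 and 195 in Hdac1/2 cKD and 338, 382 and 356 in Sin3a KD, and no Hdac1/2 cKD library reached the range of the other groups. The log2 fold change between the knockdowns was -0.72 with a standard error of 0.19 (adjusted p = 0.0174), and that of Hdac1/2 cKD against NC, -0.55, missed the threshold (adjusted p = 0.0659). The flavoprotein subunits Etfa and Etfb were not called, with ranges of 1268 to 2329 and 675 to 1284, and 49.9% of the 31-base words of Etfb occur in other genes. In this comparison the calls of Etfdh and Acsl4 were lost when a single library was left out, Etfdh without Hdac1/2 cKD replicate 2 or 3 or Sin3a KD replicate 2, and Acsl4 without Hdac1/2 cKD replicate 1 or 3 or Sin3a KD replicate 3. The call of Hsd17b4 was lost with lane in the model (adjusted p = 0.0503).

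Ppara encodes a fatty acid activated nuclear receptor that in liver is known to induce Cpt1a, Acot1 and the peroxisomal thiolases. Its normalised counts were 8.66, 8.54 and 96.9 in NC, 8.18, 4.50 and 3.90 in Hdac1/2 cKD and 9.80, 11.4 and 95.3 in Sin3a KD. One NC library and 1 Sin3a KD library stood far above the other 7; both were sequenced on lane 3, as were Hdac1/2 cKD replicate 3 and Sin3a KD replicate 2. The Hdac1/2 cKD libraries were the 3 lowest. The log2 fold change of -1.73 in Hdac1/2 cKD, with a standard error of 1.01, did not pass the test (adjusted p = 0.282).

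Lane was not balanced over the groups, so sizes within lanes are given for the called members. Their groups do not overlap, so the direction within a lane was fixed by the calls and says nothing about lane. The log2 differences of the 8 members called in Hdac1/2 cKD ran from 0.40 to 4.25 in lane 2 (2 Hdac1/2 cKD libraries and 1 NC library) and from 0.58 to 5.90 in lane 3 (1 library of each). In lane 3 those of the 4 members called in Sin3a KD ran from 0.47 to 4.08 in absolute size (2 Sin3a KD libraries and 1 NC library), and those of the 5 called between the knockdowns from 0.56 to 1.95. Of the 8 members called in Hdac1/2 cKD, Cpt1a, Acaa1a, Acaa1b, Acot1 and Acot7 kept their call in all 17 alternative analyses.

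The pathway outside the 35 genes was read from 8 lists with 80 entries, of which 62 were tested. In Hdac1/2 cKD 2 of them rose and 5 fell (3.23% and 8.06%, against 7.81% and 7.80% of all tested genes). In Sin3a KD 3 rose and 6 fell (4.84% and 9.68%, against 3.60% and 4.36%). Between the knockdowns 8 were higher and 9 lower in Hdac1/2 cKD (12.9% and 14.5%, against 8.49% and 8.78%). Among the 8 other acyl-CoA dehydrogenases, Acad11 fell from 539.8 ± 17.3 (SD, n = 3) in NC to 258 ± 50.3 (SD, n = 3) in Hdac1/2 cKD (log2 fold change -1.08, adjusted p = 0.000888), and Acad8, an enzyme of valine breakdown, fell from 447 ± 27.4 to 277 ± 51.8 (SD, n = 3 each; -0.70, adjusted p = 0.0138). Neither was called in Sin3a KD, and the call of Acad8 against NC was lost without Hdac1/2 cKD replicate 2 or 3. In the carnitine shuttle, 1 of 6 tested genes was called: Slc25a20, the carnitine-acylcarnitine translocase of the inner membrane, rose in Sin3a KD (log2 fold change 0.44, adjusted p = 0.0269) and was lower in Hdac1/2 cKD than in Sin3a KD (-0.70, adjusted p = 0.000722). Its call against NC was lost without NC replicate 1 or 3 or any 1 Sin3a KD library.

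Among 9 tested genes of peroxisomal lipid oxidation outside the set, 2 fell in Hdac1/2 cKD and none rose. Scp2, which holds the thiolase for branched chains, fell from 1389.6 ± 171 in NC to 772 ± 128 in Hdac1/2 cKD (SD, n = 3 each; log2 fold change -0.85, adjusted p = 0.00164). Abcd3, a peroxisomal membrane transporter for acyl-CoA, fell in both knockdowns, by 1.01 in Hdac1/2 cKD (adjusted p = 0.00175) and by 0.97 in Sin3a KD (adjusted p = 0.00621) on the log2 scale. The call in Hdac1/2 cKD was kept in all 17 alternative analyses, and that in Sin3a KD in 14. Among the peroxisomal beta-oxidation genes of the set and of this list, those called higher in Hdac1/2 cKD were Acaa1a and Acaa1b. None of the 3 other tested thioesterases was called; Acot11 had the lowest adjusted p, 0.104, in Hdac1/2 cKD compared with NC.

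Among 12 tested genes of fatty acid activation, Slc27a3, a member of the fatty acid transport protein family, was at 91.8, 127 and 98.9 in NC, 411, 382 and 586 in Hdac1/2 cKD and 267, 195 and 316 in Sin3a KD. It rose in both knockdowns, by 2.09 (adjusted p = 0.000138) and 1.27 (adjusted p = 0.00897) on the log2 scale. Acsf2, a mitochondrial acyl-CoA synthetase, fell in Sin3a KD by 0.76 (adjusted p = 0.0142) and was higher in Hdac1/2 cKD than in Sin3a KD by 0.87 (adjusted p = 0.00267). Of 8 tested PPAR partners and coregulators, 1 rose in each knockdown, Med1 in Hdac1/2 cKD and Rxra in Sin3a KD, which are named after their values were seen. Between the knockdowns, Esrra, an orphan receptor that activates oxidation genes, was lower in Hdac1/2 cKD (-0.83, adjusted p = 0.00289). The calls in Sin3a KD were lost for Slc27a3 without Sin3a KD replicate 3 and for Acsf2 without replicate 1 of NC or of Sin3a KD.

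Of 10 tested lipid droplet, lipolysis and uptake genes, 1 fell in Hdac1/2 cKD (Dgat2) and 3 in Sin3a KD (Dgat2, Plin3 and, outside the naming rule, Plin2). Dgat2, which makes triacylglycerol, fell in Sin3a KD by 1.07 (adjusted p = 0.00559) and in Hdac1/2 cKD by 0.67 (adjusted p = 0.0264) on the log2 scale. Plin3, a lipid droplet coat protein, fell in Sin3a KD by 0.46 (adjusted p = 0.0295) and was higher in Hdac1/2 cKD than in Sin3a KD by 0.56 (adjusted p = 0.00456). Its call against NC was lost in 9 of 17 alternative analyses, among them equal library totals and the omission of NC replicate 1 or 3 or any 1 Sin3a KD library. No thiolase or ketone body gene of 6 tested was called against NC. Acat2, a cytosolic thiolase, was lower in Hdac1/2 cKD than in Sin3a KD by 0.67 on the log2 scale (adjusted p = 0.00779). The call of Dgat2 in Hdac1/2 cKD was lost without NC replicate 1 or 3 or Hdac1/2 cKD replicate 1 or 2. Of the genes named from these lists, Slc25a20, Abcd3, Slc27a3, Acsf2 and Plin3 lost their call in Sin3a KD against NC with lane in the model, with both single-lane libraries left out and without trend and robust estimation, and Dgat2 lost it in the last 2 of these settings. Between the knockdowns, the calls of Acsf2, Esrra and Acat2 were lost with lane in the model.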

How the data were processed

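RNA-seq was deposited for 9 libraries of pooled mouse embryos, 3 per group. The authors quantified reads with Salmon and deposited 1 signal per gene, a count normalised with DESeq2 (GRCm38), per the file headers and the submitters' processing notes. The tool versions and the annotation were not given in the sources used here. Read counts were not recovered from these values, so no counting error is given per value. One line without a gene name (0.00543% to 0.00896% of a library) was left out, and 0 columns lacked a sample.

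Values were taken as log2(value + 1), filtered at 10 or more in at least 3 of 9 libraries, and fitted with 1 mean per group in limma 3.58.1 (R 4.3.3) with trend and robust estimation and 6 residual degrees of freedom. P-values were adjusted over all tested genes by the Benjamini-Hochberg method, with a threshold of 0.05. The script was tested on simulated data. Lengths, positions and 31-base words came from GENCODE vM21 on GRCm38, and promoters from the RefSeq table (GRCm38.p6), in Python 3.11.15.

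Members called in any comparison are named with every library's value, other members by range, and from each list outside the set up to 2 called genes of lowest adjusted p, or the gene of lowest adjusted p where none was called. Some genes that this rule names are not reported here. The members and lists were chosen with earlier results of these data known. Alternatives were a pseudocount of 5, no filter, a mean of at least 50, equal library totals, limma without trend and robust estimation, a replicate block, lane (as read from the library descriptions) as a factor, and omission of single libraries and of both libraries alone on their lanes.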

Additional observations from a re-analysis of the deposited data

How the results depend on the processing

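No called member changed sign under any of the alternatives. Of 17 calls of members over the 3 comparisons, 7 were kept in all of them: Cpt1a and Acaa1a in Hdac1/2 cKD against NC and against Sin3a KD, and Acaa1b, Acot1 and Acot7 in Hdac1/2 cKD against NC. Of 82 member comparisons without a call, 8 were called under some alternative and 31 changed sign under some alternative. Leaving out 1 library at a time gave 5 to 8 members higher and 0 to 1 lower in Hdac1/2 cKD against NC (1267 to 2175 genes called), 1 to 3 higher and 1 to 3 lower in Sin3a KD against NC (337 to 1537 genes), and 2 to 4 higher and 1 to 2 lower between the knockdowns (1427 to 2759 genes). The lowest counts in Sin3a KD against NC, 337 genes, came without Sin3a KD replicate 1 or 3, and without NC replicate 1 it was 588. The member called lower in Hdac1/2 cKD was Acadm, without NC replicate 2.

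Without trend and robust estimation, 1369 genes were called in Hdac1/2 cKD (2083 in the main analysis) and 36 in Sin3a KD (1062), with 0 members higher and 0 lower in Sin3a KD. With lane as a factor, Sin3a KD had 94 genes, 0 members higher and 0 lower, and between the knockdowns 1002 genes were called (2304 in the main analysis) and 0 members lower. Without the libraries alone on their lanes the counts were 1314, 49 and 1390 genes, with 0 members higher and 0 lower in Sin3a KD. With equal library totals 4 members were higher in Sin3a KD, Acot7 and Hadh in addition. The causes were not tested. Same-numbered libraries of different groups shared little deviation, with correlations from -0.0193 to 0.0581. Differently numbered libraries were not compared, so these values cannot tell whether samples were collected in pairs. With a replicate block, 7 members were higher in Hdac1/2 cKD, Ech1 losing its call, and 2 rose and 2 fell in Sin3a KD.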
